A study of Mus musculus with 6 samples.

Results

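The collagen genes are the mouse genes whose symbol has the form Col, a type number, the letter a and a chain number, and they were taken as the probe sets that the array annotation pairs with exactly 1 such symbol. This rule, which uses no measured value, gave 42 probe sets for 40 genes, of 18197 probe sets for 16797 genes. Col6a5 and Col6a6 had 2 probe sets each and all other genes had 1. Of 45 collagen genes listed by structural class, Col4a5, Col7a1, Col9a3, Col12a1 and Col21a1 had no probe set with a single symbol and are not analysed here.

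The values come from 6 Affymetrix gene arrays of total RNA from Normal cells, which are NIH3T3, an immortalized line of mouse embryo fibroblasts without a transforming oncogene. All cells were plated in 25 mM glucose, moved after 16 h to medium with a starting glucose of 1 mM and harvested 72 h later, so that low glucose is common to both groups. The 3 NF arrays are of cells that received 10 μM forskolin (FSK), an activator of adenylate cyclase, at 24 h and again at 48 h. The 3 N arrays are of cells without FSK, and the paper describes its controls as given DMSO, the vehicle, each day. It also reports that by 72 h no glucose was left in the medium, with or without FSK. The samples are named biological replicates of 1 cell line, and the p-values weigh the difference between groups against the spread between these arrays.

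Collagens are secreted proteins of 3 chains wound into a triple helix, and they are the main load-bearing component of connective tissue. Fibroblasts assemble the procollagen chains in the endoplasmic reticulum, where prolyl and lysyl residues are hydroxylated, and secreted collagen is trimmed, laid down as fibrils or networks, crosslinked and in time degraded. The fibrillar types (among them I, III and V) form the fibrils, type IV forms the sheet of basement membranes, type VI forms beaded microfilaments, and types VIII and X form networks of short chains.

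The cells carried a fibroblast profile, and 1 control array stood apart. Of 9 fibroblast marker probe sets, 8 lay above the median level of the array (3.70 on the log2 scale), with Lum (lumican) at 2.56 in N and 2.36 in NF, whereas 0 of 5 endothelial, 0 of 3 adipocyte, 2 of 6 epithelial, 1 of 3 macrophage and 1 of 6 chondrocyte markers, the last being Sox9, lay above it. Averaged over the fibroblast markers, N replicate 1 had a log2 value of 8.28, while the lowest of the remaining arrays had 8.84 and the highest 9.04. Set against the average of the other two N arrays, N replicate 1 had a median shift of -0.49 over 5189 probe sets with a mean between 5 and 8, compared with shifts of -0.08 to 0.07 for the remaining arrays, and the SD of its values was 2.19 against 2.37 to 2.42. Calls of named genes that turn on this array are given with and without it.

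The sequence before the start of 3 members is shown. Col3a1 and Col4a6 were taken because they had an adjusted p under 0.05 in limma, and Col1a2 as a fibrillar partner of Col3a1 that did not. The stretches are from RefSeq (GRCm38.p6), read 5′ to 3′ on the strand of the gene, and end at the base before the outermost transcript start. They are chr1:45311288-45311537 on the plus strand, chr6:4505368-4505617 on the plus strand and chrX:141474096-141474326 on the minus strand. Capitals mark any match, on either strand, to TGACGTCA (the cAMP response element, CRE), its core TGACG, the AP-1 site TGANTCA, the CCAAT box, the GC box GGGCGG or the TATA box TATAAA.
Col3a1: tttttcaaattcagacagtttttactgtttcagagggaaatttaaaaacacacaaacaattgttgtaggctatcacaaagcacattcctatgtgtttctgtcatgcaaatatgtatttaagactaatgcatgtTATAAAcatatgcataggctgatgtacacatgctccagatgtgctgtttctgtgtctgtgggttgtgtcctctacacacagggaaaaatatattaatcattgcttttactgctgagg
Col1a2: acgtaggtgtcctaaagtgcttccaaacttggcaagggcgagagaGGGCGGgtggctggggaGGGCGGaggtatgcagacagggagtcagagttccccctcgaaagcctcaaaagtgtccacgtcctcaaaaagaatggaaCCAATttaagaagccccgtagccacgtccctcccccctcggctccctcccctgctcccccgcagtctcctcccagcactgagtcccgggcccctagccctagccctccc
Col4a6: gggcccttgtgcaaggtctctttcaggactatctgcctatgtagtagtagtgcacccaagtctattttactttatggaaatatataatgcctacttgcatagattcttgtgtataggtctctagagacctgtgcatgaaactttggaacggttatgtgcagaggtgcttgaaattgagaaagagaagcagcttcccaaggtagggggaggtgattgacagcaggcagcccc

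The stretches differ in composition. Col3a1 held 35.2% G and C and 1 TATA box, and Col1a2 held 62% G and C with 2 GC boxes and 1 CCAAT box. The printed stretch of Col4a6 held 45.5% G and C and none of the 6 motifs. Windows from 250 bases before to 50 after the start were at hand for 33 of the 40 genes, 36 windows in all, of which those of Col4a1 and Col4a2 overlap. The windows reach past the printed stretches, and in full that of Col4a6 held 1 GC box and that of Col1a2 held 2 CCAAT boxes. TGACGTCA was present in 1 of the 36 (2.78%), that of Col24a1, and in 1.79% of all 32851 mouse windows. The core TGACG, which is also part of TGACGTCA, was present in those of Col24a1 and Col11a2 (5.56%, against 20.8% of all). GGGCGG was present in 21 (58.3%, against 35.7%), CCAAT in 11 (30.6%, against 37.4%), TATAAA in 5 (13.9%, against 13.6%) and TGANTCA in 1, that of Col6a1 (2.78%, against 7.81%). These shares describe letters in these windows only.

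Most collagen genes did not pass the test. With NF compared with N, 1 collagen probe set rose (Col3a1), 1 fell (Col4a6) and 40 were not called at an adjusted p of 0.05 (limma, Benjamini-Hochberg over all 18197 probe sets). Of all probe sets, 2.45% were called, 1.76% as higher and 0.692% as lower in NF (320 and 126, or 517 and 384 after a further quantile normalization, which left the collagen calls at Col3a1 and Col4a6), so the collagen calls are few in number and near that background. Without adjustment, 1 collagen probe set was higher and 2 were lower at a p of 0.05, compared with 13.4% of all probe sets. Leaving out N replicate 1 gave 1 collagen probe set higher and 3 lower, where the share of all probe sets called also went up, to 5.33% (2.49% as lower). Leaving out N replicate 3 gave 0 and 1 (0.78% of all), and leaving out NF replicate 1 or NF replicate 3 gave 0 and 0 (0.0055% and 0.011% of all, limma). The 3 values of NF lay outside the range of the 3 values of N for 6 of the 42, 2 above (Col3a1, Col16a1) and 4 below (Col4a6, Col8a1, Col20a1 and 1 of the 2 probe sets of Col6a6), against 19.7% of all probe sets.

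The group mean was higher in NF for 11 of the 42 collagen probe sets (26.2%), compared with 45.3% of all probe sets, and the median log2 change was -0.06 compared with -0.02. Without N replicate 1 the mean was higher for 16 of 42 (38.1%), compared with 45.2% of all, and the median was -0.04. After a further quantile normalization these were 15 of 42 (35.7%), compared with 50% of all. The 26 collagen probe sets at or above the median level had 9 higher means (34.6%) and a median change of -0.06, where all probe sets at or above it had 59.3% higher means and a median change of 0.08. The 16 below it had 2 higher means (12.5%) and a median change of -0.08, where all probe sets below it had 31.2% higher means and a median change of -0.07. In bulk RNA, fewer cells of a kind and less RNA per cell cannot be told apart.

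**Figure D1:**
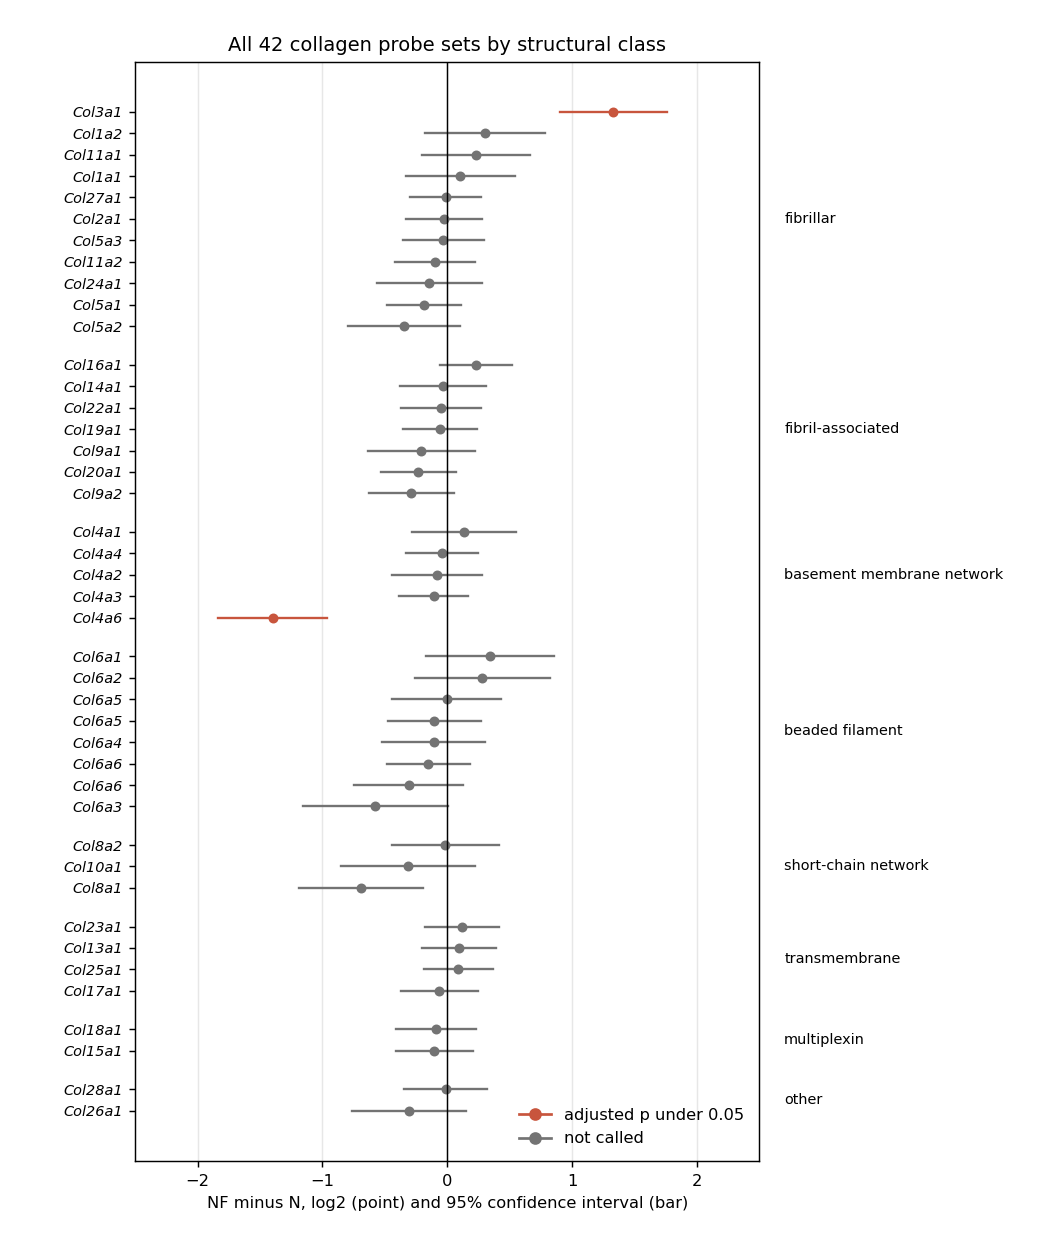
Change of each of the 42 collagen probe sets between NF and N, grouped by structural class. The x axis gives NF minus N on the log2 scale, points are differences of group means (3 arrays each), bars are 95% confidence intervals from limma, and colour marks an adjusted p under 0.05. Col3a1 at 1.33 and Col4a6 at -1.40 are the members called, and of the other intervals that of Col8a1 alone leaves out 0.

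Among the fibrillar collagens, Col3a1 rose while the type I chains did not pass the test. Col3a1 (probe set 10346015), which encodes the chain of type III collagen, the fibrillar collagen of stretchable tissues and of early granulation tissue, had log2 values of 5.43, 5.67 and 5.50 in the N arrays and 6.99, 6.47 and 7.12 in the NF arrays. The groups did not overlap, and NF replicate 2 was the lowest of the NF arrays. The mean went from 5.53 ± 0.12 to 6.86 ± 0.34 (SD, n = 3), a log2 change of 1.33 with an SE of 0.19, or 2.51-fold, with an adjusted p of 0.0157 in limma. The call was kept without N replicate 1 (1.28, adjusted p of 0.00797 in limma) but was lost without N replicate 3 (1.31, 0.0561), without NF replicate 1 (1.26, 0.113) and without NF replicate 3 (1.20, 0.115), so the size of the change was steady and its adjusted p was not.

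Col1a1 and Col1a2, the chains of type I collagen, the bulk collagen of skin, tendon and bone, were not called. Col1a1 had log2 values of 8.75, 9.44 and 9.02 in N and 9.18, 9.03 and 9.31 in NF, and Col1a2 had 8.94, 9.61 and 9.60 in N and 9.75, 9.46 and 9.84 in NF. In both, N replicate 1 was the lowest of the 6 arrays and the groups overlapped. The log2 change was 0.11 for Col1a1 (95% confidence interval -0.33 to 0.54, adjusted p of 0.87 in limma) and 0.30 for Col1a2 (-0.18 to 0.78, adjusted p of 0.614). The interval of Col1a1 leaves room for a moderate change in either direction, and that of Col1a2 mostly for a rise. Without N replicate 1 the changes were -0.06 and 0.08.

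The chains of type V collagen, which co-assembles with type I and sets fibril diameter, had lower means in NF without a call. Col5a2 had 5.97, 6.63 and 6.33 in N and 6.02, 5.74 and 6.15 in NF, with overlap, a log2 change of -0.34 and an adjusted p of 0.526 in limma. Col5a1 changed by -0.19 (95% confidence interval -0.48 to 0.11) and Col5a3 by -0.03. Col3a1 and Col5a2 are next to each other among the protein-coding genes of chromosome 1 in RefSeq. Of the remaining fibrillar members, Col11a1, a chain of type XI collagen of cartilage fibrils, had a mean 0.23 higher in NF with overlapping arrays, and Col11a2, Col2a1 (the type II collagen of cartilage), Col24a1 and Col27a1 had changes between -0.14 and -0.01. In all, 4 of the 11 fibrillar probe sets had a higher mean and the median change was -0.03.

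Col4a6 fell, and the other basement membrane chains were not called. Col4a6 (probe set 10607012) encodes a type IV chain that is found with the product of its neighbour Col4a5 in the basement membranes of smooth muscle and of some epithelia. Its log2 values were 4.96, 5.44 and 5.69 in N and 3.99, 4.0 and 3.90 in NF. The groups did not overlap, and N replicate 1 was the lowest of the N arrays. The mean went from 5.36 ± 0.37 to 3.96 ± 0.05 (SD, n = 3), a log2 change of -1.40 with an SE of 0.19, or 2.64-fold lower, with an adjusted p of 0.0147 in limma. The NF values are close to the median level of the array. Without N replicate 1 the change was -1.60 (adjusted p of 0.000994 in limma), and the call was lost without NF replicate 1 (-1.41, 0.0968) and without NF replicate 3 (-1.37, 0.117).

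Col4a1 and Col4a2, the neighbouring and divergent genes on chromosome 8 whose products make up the common type IV network, did not pass the test. Col4a1 had 5.73, 6.27 and 5.86 in N and 6.29, 5.90 and 6.07 in NF, with overlap and a log2 change of 0.13 (95% confidence interval -0.28 to 0.55). Col4a2 had 6.30, 6.75 and 6.66 in N and 6.59, 6.38 and 6.48 in NF, with overlap and a change of -0.08 (-0.44 to 0.27). Col4a3 and Col4a4, chains of the kidney glomerular membrane, lay below the median level with changes of -0.11 and -0.04.

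The chains of type VI collagen, which join as a trimer of Col6a1, Col6a2 and Col6a3 products before they form microfilaments around cells, differed in their changes, although the rise of 2 of the 3 means rested on N replicate 1. Col6a1 had log2 values of 8.24, 8.99 and 9.04 in N and 9.19, 8.94 and 9.17 in NF, a mean change of 0.34 (adjusted p of 0.587 in limma). Col6a2, its neighbour on chromosome 10, had 7.48, 8.41 and 8.11 in N and 8.32, 8.10 and 8.42 in NF, a mean change of 0.28 (adjusted p of 0.689). Col6a3 had 8.15, 9.08 and 9.10 in N and 8.11, 8.31 and 8.17 in NF, a mean change of -0.58 (adjusted p of 0.377). N replicate 1 was the lowest N array in each of the 3 genes, and in Col6a3 it lay among the NF arrays. Without it, Col6a3 was called lower in NF by 0.89 (adjusted p of 0.00588 in limma), and the changes of Col6a1 and Col6a2 shrank to 0.08 and 0.02. Col6a4, Col6a5 and Col6a6, alternative chains of restricted expression, gave 5 probe sets with lower means in NF, by 0.31 at most, and without N replicate 1 the mean of Col6a4 (0.03) and of 1 probe set of Col6a5 (0.20) was higher in NF and the largest fall, of Col6a6, was 0.098.

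Col8a1 encodes a chain of type VIII collagen, a short-chain network former of vessel walls and of the cornea. Its log2 values were 8.84, 9.70 and 9.29 in N and 8.61, 8.71 and 8.44 in NF, and every NF array was below every N array. The log2 change of -0.69 with an SE of 0.22 had an adjusted p of 0.188 in limma and did not pass the test. Without N replicate 1 it was -0.91 with an adjusted p of 0.0148, a call. Col10a1, the collagen of hypertrophic cartilage, had 3.42, 4.17 and 4.08 in N and 3.29, 3.86 and 3.58 in NF, with overlap and a change of -0.31. Col8a2 changed by -0.01.

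**Figure D2:**
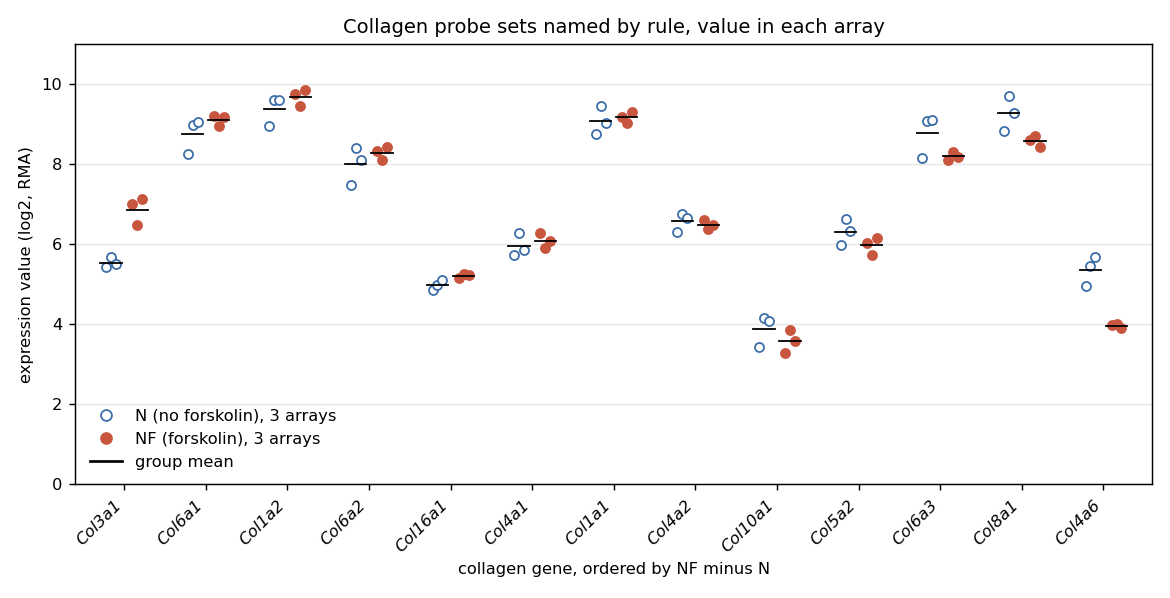
Log2 expression value (y axis, RMA) in each of the 6 arrays for the 13 collagen probe sets named by rule, ordered by NF minus N. Open points are N, filled points are NF and lines are group means. Col3a1, Col16a1, Col8a1 and Col4a6 are the ones whose groups do not overlap, and N replicate 1, the leftmost open point, is the lowest N array in all 13.

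Of the 15 probe sets of fibril-associated, transmembrane, multiplexin and remaining collagens, none was called by limma (2.45% of all probe sets were). None had an unadjusted p under 0.05 (13.4% of all probe sets, and 305 of the 9098 below the median level). Col16a1, a fibril-associated collagen, had 4.85, 4.99 and 5.10 in N and 5.16, 5.26 and 5.23 in NF, all above N, with a log2 change of 0.23 and an adjusted p of 0.494. The other fibril-associated members (Col9a1, Col9a2, Col14a1, Col19a1, Col20a1 and Col22a1) had changes between -0.29 and -0.03, and Col20a1 was lower in every NF array than in every N array (3.58, 3.70 and 3.64 in NF and 3.73, 3.85 and 4.02 in N). Of the transmembrane collagens, Col13a1, Col23a1 and Col25a1 had changes of 0.09 to 0.12 and Col17a1, a hemidesmosome component, of -0.06. Col15a1 and Col18a1, the multiplexins of basement membrane zones, changed by -0.10 and -0.09, and Col26a1 and Col28a1 by -0.31 and -0.01.

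Because a shift of equal size over the genes of an array cancels in a difference of 2 probe sets of that array, 9 pairs of chains were also compared within arrays. The narrower spread of values in N replicate 1 is not a shift of equal size. It need not cancel between probe sets of unlike level. The pairs are chains that assemble together or fibrils that mix, and they were chosen after their values had been seen. Col3a1 minus Col1a1 was -3.32, -3.77 and -3.53 in N and -2.19, -2.56 and -2.20 in NF, a change of 1.22 with no overlap. Col3a1 minus Col1a2 changed by 1.03 and Col3a1 minus Col5a2 by 1.67, both without overlap. In these pairs N replicate 1 was the highest of the N arrays.

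Col6a3 minus Col6a1 was -0.09, 0.09 and 0.05 in N and -1.08, -0.63 and -0.999 in NF, a change of -0.92. Col6a3 minus Col6a2 was 0.67, 0.67 and 0.98 in N and -0.21, 0.21 and -0.25 in NF, a change of -0.86. The SD over the N arrays, N replicate 1 included, was 0.10 and 0.18, and the groups did not overlap in either difference. Col6a1 minus Col6a2 changed by 0.06, with overlap.

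The groups overlapped in the remaining pairs, with changes of -0.19 for Col1a1 minus Col1a2, 0.22 for Col4a1 minus Col4a2 and 0.16 for Col5a1 minus Col5a2. For each of the 5 pairs without overlap the two-sided exact permutation p was 0.1, the smallest that 3 arrays against 3 allow, and 0.18 after Benjamini-Hochberg adjustment over the 9 pairs, so no pair can pass the threshold in this design. Under 8 alternatives the change stayed between -1.06 and -0.83 for Col6a3 minus Col6a1 and between 1.11 and 1.35 for Col3a1 minus Col1a1. Each of the 5 holds Col3a1, which was called, or Col6a3, one of the 5 largest falls, so the pairs are description and not a further test. A difference of this kind describes unequal change in these arrays, not which of the 2 genes changed.

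**Figure D3:**
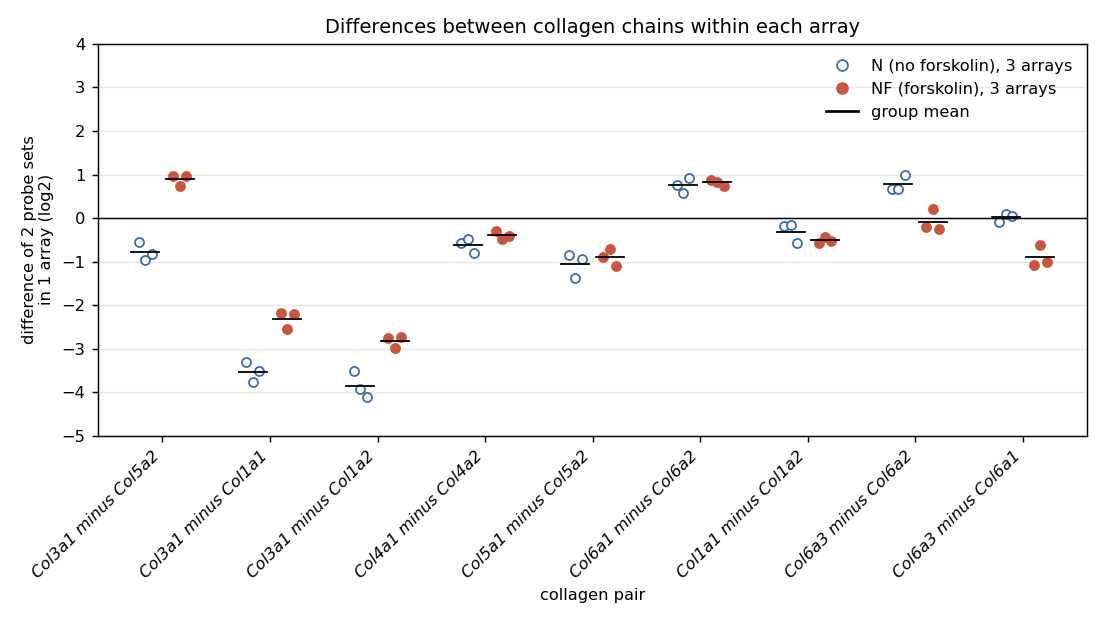
Difference between the log2 values of 2 collagen probe sets in the same array (y axis) for 9 pairs, ordered by the change between groups. Open points are N, filled points are NF and lines are group means of 3 arrays. The 3 pairs with Col3a1 are higher and the 2 pairs with Col6a3 are lower in every NF array than in every N array, and the other 4 overlap. The height of a pair reflects the probes as well and is not a ratio of transcripts.

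Genes that act on collagen were taken from lists of 74 genes by step, of which 65 had a probe set with 1 symbol (82 probe sets). Of these, 4 were called higher in NF and 1 lower, compared with 1.76% and 0.692% of all probe sets. The median change was 0.0015, and 42 of 82 means were higher (51.2%, compared with 45.3% of all). Leaving out N replicate 1 gave 5 higher and 3 lower, where 5.33% of all probe sets were called. Leaving out N replicate 3 gave 1 and 1 (0.78% of all). Leaving out NF replicate 1 or NF replicate 3 gave 0 and 0 (0.0055% and 0.011% of all, limma). Chain modification and folding held 2 of the rises. Plod2, the lysyl hydroxylase that acts on collagen telopeptides, had log2 values of 6.04, 6.37 and 6.33 in N and 8.07, 7.79 and 8.09 in NF, a change of 1.74 with an SE of 0.15 and an adjusted p of 0.00562 in limma. P4ha3, a catalytic subunit of prolyl 4-hydroxylase, had 5.57, 6.46 and 5.81 in N and 7.91, 7.38 and 7.86 in NF, a change of 1.77 with an SE of 0.25 and an adjusted p of 0.0162. In both genes every NF array was above every N array.

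The call of Plod2 was lost without NF replicate 1 (adjusted p of 0.0598 in limma) and without NF replicate 3 (0.0607). P4ha3 lost its call without those arrays (0.112 and 0.128) and without N replicate 3 (0.0585). Other members of the step did not pass the test, among them Fkbp14, a prolyl isomerase of the endoplasmic reticulum, at 0.96 (adjusted p of 0.182), P4ha1 at 0.41, P4ha2 at 0.43, Plod1 at 0.18 and Plod3 at 0.36. The mean was higher in NF for 21 of the 25 probe sets of the step (84%), with a median change of 0.22. It was higher for 45.3% of all probe sets and for 59.3% of those at or above the median level. Without N replicate 1 the mean was higher for 15 of 25 (60%) with a median of 0.06, compared with 45.2% of all, dim probe sets included. The share of those at or above the median level is not given here for that fit. N replicate 1 lay low over most probe sets with a mean between 5 and 8. Serpinh1 and Fkbp10, chaperones of procollagen, had no probe set with a single symbol and are not analysed here.

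None of the genes of propeptide trimming (22 probe sets of 7 genes, 16 of them of Adamts3) or of crosslinking (5 probe sets) was called by limma, with 1 and 2 at an unadjusted p of 0.05 (13.4% of all probe sets). Bmp1, the C-proteinase of fibrillar procollagens, had a mean 0.41 higher in NF, Tll1 had one 0.25 lower, and the Adamts3 probe set of lowest p had one 0.29 lower at means of 2.94 and 2.65. Without N replicate 1 these log2 changes were 0.15, -0.13 and -0.23. The 2 probe sets of Loxl4, a lysyl oxidase, had changes of -0.81 (adjusted p of 0.119) and -0.73 (0.44), or -1.02 (0.0103, a call) and -1.08 (0.0525) without N replicate 1. Loxl1 had a change of 0.56 (0.363), or 0.27 without that array. Lox and Loxl2 are not analysed here.

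Among proteins that bind and order fibrils, Prelp fell and Dpt rose. Prelp, a leucine-rich proteoglycan that links collagen to basement membrane, had log2 values of 8.63, 9.07 and 9.17 in N and 7.37, 7.50 and 7.40 in NF, a change of -1.54 with an SE of 0.17 and an adjusted p of 0.00843 in limma. Dpt (dermatopontin), which promotes fibril formation, had 2.79, 2.55 and 2.60 in N and 4.49, 3.96 and 3.64 in NF, a change of 1.39 with an adjusted p of 0.0219. Both were without overlap, and in N Dpt lay below the median level of the array. Thbs2, a matricellular protein that affects fibril shape, had a mean 1.34 higher in NF with an adjusted p of 0.0615 and did not pass, and without N replicate 1 it was 1.26 higher (0.0494, a call).

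Prelp lost its call without NF replicate 1 (adjusted p of 0.0724 in limma) and without NF replicate 3 (0.0758), and Dpt lost it without any of the arrays other than N replicate 1 (0.0593 to 0.087). The collagen receptors (8 probe sets) had no call by limma, with 3 at an unadjusted p of 0.05 (13.4% of all probe sets), Itga11 at -1.02 (adjusted p of 0.247), Itga10 at -0.52 (0.3) and the collagen uptake receptor Mrc2 at 0.59 (0.33). Itga11, the integrin chain of fibroblasts that binds fibrillar collagen, was at 5.36, 6.20 and 6.92 in N and 4.84, 5.25 and 5.33 in NF. Its N replicate 1 was nearly level with the NF arrays, and without it the change was -1.42 (0.0105, a call).

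Of the genes of collagen degradation, Mmp14 rose. This membrane-bound collagenase, which also activates the product of Mmp2, had log2 values of 8.52, 8.97 and 8.78 in N and 9.89, 9.65 and 9.97 in NF, a change of 1.08 with an SE of 0.16 and an adjusted p of 0.0201 in limma. The groups did not overlap, and the call was lost when N replicate 3 (0.0631), NF replicate 1 (0.131) or NF replicate 3 (0.144) was left out. Mmp2 had a mean 0.78 higher in NF, with every NF array above N, and did not pass the test (0.108). Pepd, a dipeptidase that frees proline, had one 0.48 higher (0.567), or 0.14 higher without N replicate 1. The secreted collagenases Mmp1a, Mmp8 and Mmp13 had means between 2.42 and 2.79.

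**Figure D4:**
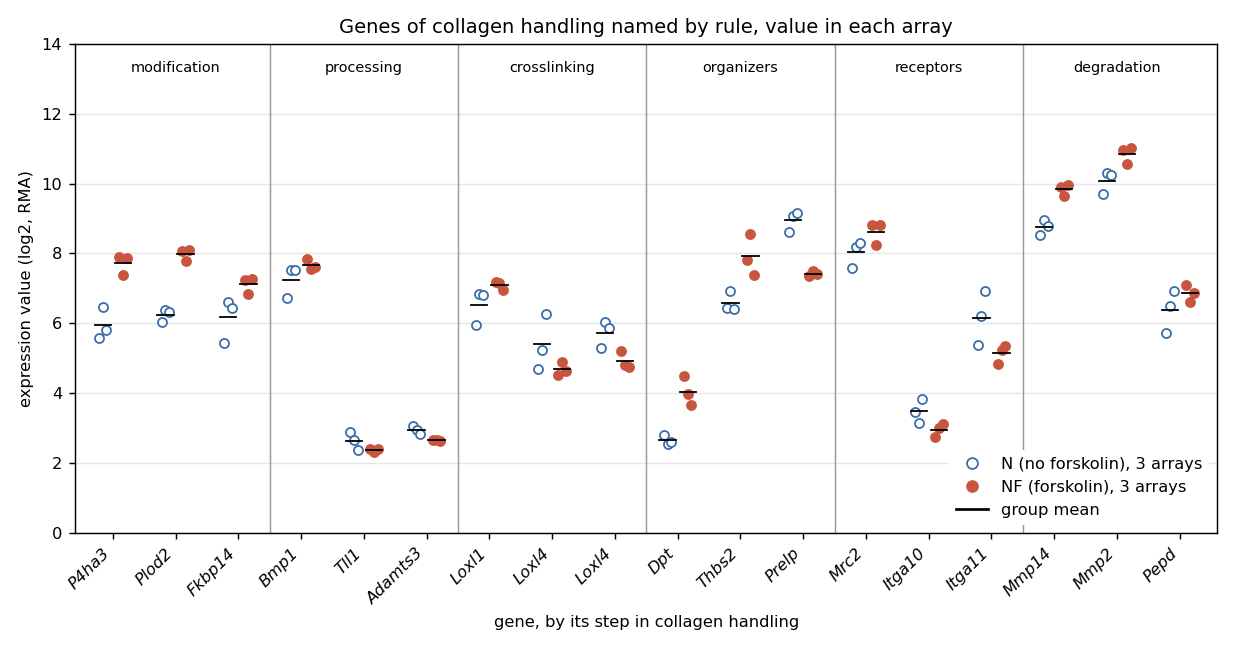
Log2 expression value (y axis, RMA) in each of the 6 arrays for genes of collagen handling named by rule, by step. Open points are N, filled points are NF and lines are group means. P4ha3, Plod2, Dpt and Mmp14 are higher and Prelp is lower in NF with an adjusted p under 0.05, without overlap, and the remaining genes shown did not pass the test.

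Of the markers of contractile fibroblasts, Acta2 was called and Tagln, Cnn1, Myh11 and Actg2 were not. Acta2, the smooth muscle actin that marks myofibroblasts, fell by 1.56 on the log2 scale with an adjusted p of 0.00843 in limma. The means of all 5 myofibroblast probe sets were lower in NF, as were those of 9958 of all 18197 probe sets, and 2 of the 5 lay above the median level. The call of Acta2 was lost on leaving out NF replicate 1 (0.0724) or NF replicate 3 (0.0758). The mean over the list was 4.87 to 5.15 in the N arrays and 4.39 to 4.42 in the NF arrays. Of the macrophage markers Cd14 rose by 1.05 (0.0439), a call that was lost without N replicate 3 or any of the NF arrays (0.0899 to 0.235), while Ptprc, which defines leukocytes, was at 2.86 in N and 2.97 in NF. The part of these genes in the collagen results was not tested.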

How the data were processed

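The deposited table holds expression on a log2 scale, computed by the authors from the scanned arrays by RMA. The methods name the R/Bioconductor package oligo and an ENSEMBL annotation, and state that probes with no Entrez gene were dropped. Versions and genome build are not given in the sources used here, nor is which arrays were normalized together. Columns were matched to the 6 arrays by accession, and arrays were grouped by their titles. Of 22035 probe sets, 18197 had 1 gene symbol in the platform annotation and were tested, and 1260 with several symbols and 2578 not listed were left out. The study's methods name limma for its array comparisons, and NF was compared with N here by lmFit and eBayes of limma 3.58.1 in R 4.3.3, adjusted after Benjamini and Hochberg, with a threshold of 0.05, and the procedure was tested on simulated data. Intervals are 95% confidence intervals of the fit. For arrays, their number limits the precision.

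The collagen rule, the structural classes, the lists of genes that act on collagen and the markers were chosen with earlier results of these data known. Members named are those called, the 5 largest rises, the 5 largest falls and the 10 with the highest mean value. From each other list, called genes and up to 3 of lowest p are named, and further genes were added for context after their values were seen. Levels of probe sets were used to rank members and to place genes above or below the median level. They are not read as relative amounts of transcript. The alternatives were a further quantile normalization, median centring, removal of probe sets below the median level, the replicate number as a block, limma's trend and robust options, the methods' t-test, which stands in the study's general statistics section and not in its account of the arrays, with and without adjustment, adjustment over every probe set of the table, the brightest probe set of a gene, and each array left out. Promoter sequences and gene neighbours are from RefSeq, used for description only.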

Additional observations from a re-analysis of the deposited data

How the results depend on the processing

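With 3 arrays a group, the calls depend on single arrays and on the test more than the sizes do, and neither called collagen gene changed direction. Of the 42 collagen probe sets, 17 uncalled ones, with a change of 0.21 or less in size, did so under a further normalization, median centring or 1 array left out, 7 of them without N replicate 1. For the collagen probe sets, the 1 called higher and the 1 called lower became 0 and 0 with the replicate number as a block and with the methods' t-test after adjustment, which called 1 probe set of 18197. The methods' t-test before adjustment gave 2 higher (Col3a1 and Col16a1) and 1 lower. Leaving out 1 array gave 0 to 1 higher and 0 to 3 lower, with 3 lower without N replicate 1 (Col4a6, Col6a3 and Col8a1), 0 higher without N replicate 3 and none in either direction without NF replicate 1 or NF replicate 3, where limma called 1 and 2 of all probe sets. At an unadjusted p of 0.05, 1 collagen probe set was higher and 1 to 6 were lower when an array was left out, and 1 and 3 with the block. In the main fit 13.4% of all probe sets passed at that p. The share is not given here for the other fits, so these counts have no background to be read against. The median change of the collagen probe sets was -0.06 and lay between -0.10 and -0.04 in the alternatives computed for it. For the genes that act on collagen, the 4 higher and 1 lower became 2 and 1 with the replicate block, where 64 and 17 of all probe sets were called. They became 0 and 0 with the adjusted t-test, and 6 and 4 unadjusted, where 5.75% and 4.96% of all were called. The further quantile normalization gave 6 higher and 3 lower, and leaving out an array gave 0 to 5 higher and 0 to 3 lower. In the fit with the replicate block the adjusted p was 0.0603 for Col3a1 and 0.0565 for Col4a6. Same-numbered arrays had correlations of deviations of -0.07, -0.08 and -0.07, and differently numbered arrays had -0.04 to 0.14. Deviations of 3 arrays from their group mean sum to 0, so these values cannot decide whether the replicate numbers pair the arrays. Quantile normalization moved the calls of all probe sets from 320 higher and 126 lower to 517 and 384. The cause was not tested.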
